A study of Mus musculus with 28 samples.

Results

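The genes described here are Gpr39 and Lypd1, which lie side by side on chromosome 1, Tnr on the same chromosome and Adra1b on chromosome 11. They are 4 of the 21755 protein-coding genes on chromosomes 1 to 19 and X. They were chosen by a measured value: in mouse embryonic stem cells (mESCs) each start lay in a wide H3K9me2 domain in the solvent control, and that domain was gone or nearly gone from the list of domains after depletion of the histone methyltransferase EHMT2. The change in mESCs is therefore the rule of choice and is given below as a description. The working name of the group, genes of wide domains lost in mESCs, held by the strictest reading for Tnr and Adra1b, whose domains shared no base with the mESC dTAG set. It did not hold in that reading for Gpr39 and Lypd1, whose domain kept 6.67% of its length.

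H3K9me2 was profiled by ULI-NChIP (immunoprecipitation of native chromatin, made for low cell numbers) in EHMT2-dTAG mESCs, a line labelled BL6/129 hybrid and made from KH2 mESCs (C57BL/6J x 129S1 F1), kept in serum and LIF on feeder cells. In all groups both copies of endogenous Ehmt2 carried a FKBP12 degron with HA tags and an mCherry reporter, so that dTAG-13 removes the protein, and the sorted work used 1 clone. Sorted groups also carried a GFP reporter driven by MERVL, and after 72 h in DMSO or dTAG-13 the GFP-negative cells were taken as mESCs and the GFP-positive cells as 2CLCs, a rare cell state that resembles the embryo at the 2-cell stage. The 28 libraries comprise 14 immunoprecipitations and 14 inputs: 3 of each kind for mESC DMSO, mESC dTAG, 2CLC DMSO and 2CLC dTAG, and 2 of each kind for bulk mESCs after 24 h in DMSO. The retinoid agonist TTNBP was added to 2 of the replicates according to the labels, which do not name them, whereas the study's methods give it for the sorted cells without exception. Sorting and the reporter define both cell states, and no expression data were used here to check them against marker genes.

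What was analysed are 5 lists of domain positions in mm10, 1 for each sorted condition and 1, called the unnamed set here, whose name gives neither cell state nor treatment. A domain is a run of 5 kb bins that starts from bins with a high ratio of immunoprecipitation to input and extends on both sides until a bin of low ratio, so it also holds bins of middling ratio. The mESC sets hold 4323 domains with DMSO and 7312 with dTAG, the 2CLC sets 4246 with DMSO and 8820 with dTAG, and the unnamed set 6578. Each condition is 1 list with no values per library, the sequencing depth behind it is unknown, and no difference between sets could be set against a spread between replicates. A domain is a position and not an amount of the mark, so "out of a domain" does not mean that a place carried no H3K9me2.

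H3K9me2 is laid down mainly by EHMT2 (G9a) with its partner EHMT1 (GLP), covers long stretches of silent chromatin, and in differentiating cells is found over many genes of other lineages. All 4 genes are best known from differentiated cells. Gpr39 encodes a zinc-sensing receptor related to the ghrelin and neurotensin receptors, and Adra1b the alpha-1B adrenergic receptor that answers noradrenaline. Lypd1 encodes a membrane-anchored protein of the Ly6 family that modulates nicotinic acetylcholine receptors in the brain. Tnr encodes tenascin-R, an extracellular matrix protein of the nervous system and a part of perineuronal nets.

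In mm10 and GENCODE M21, Gpr39 (ENSMUSG00000026343.6) spans chr1:125676995-125873862 on the plus strand, 196.9 kb with 3 exon blocks. Lypd1 (ENSMUSG00000026344.9) spans chr1:125867622-125913101 on the minus strand, 45.5 kb with 6 exon blocks. The neighbours point towards each other, and their 3′ ends share 6241 bp, which is 3.17% of Gpr39 and 13.7% of Lypd1. Tnr (ENSMUSG00000015829.13) spans chr1:159523769-159931729 on the plus strand, 408 kb with 24 exon blocks. Adra1b (ENSMUSG00000050541.14) spans chr11:43774606-43901210 on the minus strand, 126.6 kb with 5 exon blocks. These are long genes, and only 1.58% of protein-coding genes exceeded Tnr in length, 4.71% exceeded Gpr39, 8.44% exceeded Adra1b and 25.0% exceeded Lypd1.

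The sequences in front of the starts are shown because the domains that changed covered these promoters, which differ in CG content. Each is the 250 bases before a start annotated by RefSeq (GRCm38.p6), written 5′ to 3′ on the strand of the gene, with every CG dinucleotide in capitals. The order is Gpr39 (chr1:125676746-125676995, plus strand), the middle one of 3 starts of Lypd1 (chr1:125912215-125912464, minus strand), Tnr (chr1:159523519-159523768, plus strand), the upstream start of Adra1b (chr11:43901238-43901487, minus strand) and its downstream start inside the gene (chr11:43836490-43836739, minus strand).
Gpr39: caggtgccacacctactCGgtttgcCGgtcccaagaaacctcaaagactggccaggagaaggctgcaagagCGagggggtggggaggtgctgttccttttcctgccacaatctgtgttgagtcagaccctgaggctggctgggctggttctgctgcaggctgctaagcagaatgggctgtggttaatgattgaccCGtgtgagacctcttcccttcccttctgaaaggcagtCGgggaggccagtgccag
Lypd1: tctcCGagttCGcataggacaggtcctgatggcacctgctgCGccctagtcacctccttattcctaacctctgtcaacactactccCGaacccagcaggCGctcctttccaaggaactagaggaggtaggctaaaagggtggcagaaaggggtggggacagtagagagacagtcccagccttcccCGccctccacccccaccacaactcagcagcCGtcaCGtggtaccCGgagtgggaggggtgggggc
Tnr: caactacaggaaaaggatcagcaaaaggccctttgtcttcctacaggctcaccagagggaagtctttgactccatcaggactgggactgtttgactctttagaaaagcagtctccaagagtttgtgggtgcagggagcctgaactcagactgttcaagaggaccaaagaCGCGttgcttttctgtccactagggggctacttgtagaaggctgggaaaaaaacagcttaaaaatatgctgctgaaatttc
Adra1b upstream: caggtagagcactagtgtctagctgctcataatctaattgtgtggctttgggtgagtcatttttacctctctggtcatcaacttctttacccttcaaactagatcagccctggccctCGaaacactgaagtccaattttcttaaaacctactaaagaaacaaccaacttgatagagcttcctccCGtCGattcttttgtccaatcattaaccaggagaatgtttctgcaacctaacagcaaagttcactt
Adra1b downstream: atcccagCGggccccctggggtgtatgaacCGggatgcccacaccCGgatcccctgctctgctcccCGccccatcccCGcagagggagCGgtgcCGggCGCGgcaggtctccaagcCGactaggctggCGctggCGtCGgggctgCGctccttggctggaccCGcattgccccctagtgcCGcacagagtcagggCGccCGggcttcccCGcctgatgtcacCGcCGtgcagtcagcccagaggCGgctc

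The promoter of Tnr held 2 CG dinucleotides, that of Gpr39 held 5 and the printed one of Lypd1 held 9, beside a median of 6 (quartiles 2 and 16) over the 32851 mouse promoters of the same table. The starts of Adra1b lay at opposite ends, with 3 CG in the upstream window and 22 in the downstream one, whose G and C bases made up 72.8% against 41.6% upstream. By observed over expected CG, a ratio that takes base content into account, 22.0% of all promoters lay below Tnr, 35.3% below Gpr39, 42.0% below the upstream start of Adra1b, 51.5% below Lypd1 and 71.0% below the downstream start of Adra1b. Lypd1 had further starts with 8 and 14 CG. All 7 RefSeq starts of the 4 genes were in a domain in mESC DMSO and out of one in mESC dTAG, as the choice of the genes implies, and nothing about CG content is read from that. Of 4 short motifs searched on both strands, GGGCGG was found once in the printed Lypd1 window and once in the downstream Adra1b window, CACGTG once in the Lypd1 window and CCAAT in 2 places of the upstream Adra1b window. TATAAA was found in none of the 7 windows. Over all promoters of this length GGGCGG was present in 32.7%, CCAAT in 33.8%, TATAAA in 12.4% and CACGTG in 6.02%.

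To place the genes in the domain landscape, each annotated start was read against the 5 sets. In mESC DMSO, 4 of the 4 starts lay in a domain and in mESC dTAG 0 did, as the rule requires. Among all 4862 protein-coding starts in mESC DMSO domains, 1105 (22.7%) were out of domains in mESC dTAG, so these genes belong to a minority of the starts, and nothing is read from that since it was the reason to choose them. Over all protein-coding genes, 22.3% of starts lay in mESC DMSO domains, while mESC dTAG domains held 5132 (23.6%). The number of starts in domains therefore did not fall. Domains are called from percentiles of the ratio, so this number does not measure the amount of the mark. The paper reports that depletion lowered H3K9me2 genome-wide in both cell states.

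The 2CLC sets and the unnamed set did not enter the choice. In 2CLC DMSO only Tnr was in a domain, so 1 of the 4, while 63.3% of the 1105 starts that left in mESCs were in one. In 2CLC dTAG 0 of the 4 were in a domain, beside 40.4% of the 1105. All 4 starts lay in domains of the unnamed set, beside 85.2% of the 1105. Tnr also left domains within 2CLCs, a change seen for 18.3% of the 5054 starts in 2CLC DMSO domains. Among starts that had left in mESCs this change was more common: 699 were in 2CLC DMSO domains, and 354 of these were out in 2CLC dTAG. With 4 genes, 2 of them neighbours in the same domain, these counts describe 3 places in the genome.

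The states split the genes into 2 patterns. Gpr39, Lypd1 and Adra1b were in a domain in mESC DMSO and in no other sorted set, a pattern held by 305 (27.6%) of the 1105. Tnr was in a domain in DMSO and out of it in dTAG in both cell states, as were 354 (32.0%) of the 1105. The remaining starts were in domains in 2CLC dTAG, 345 (31.2%) of them also in 2CLC DMSO and 101 (9.14%) not.

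The body of each gene followed its start closely. Gpr39 was covered over 100% of its length in mESC DMSO and over 0% in the other 3 sorted sets. Lypd1 gave the same values, 100% and then 0%. Adra1b was covered over 88.0% in mESC DMSO, 111.4 kb from its start onward, and over 0% in the other 3 sorted sets, and the last part of the gene at the 3′ end lay outside the domain in every set. The mESC DMSO domain touched 4 of the 5 exon blocks of Adra1b but held only 45.2% of its exon bases, 1528 of 3382.

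Tnr was the gene with intermediate values. In mESCs its body was covered over 97.5% (398 kb) with DMSO and 6.55% (26.7 kb) with dTAG, and in 2CLCs over 82.8% (338 kb) with DMSO and 16.4% (66.7 kb) with dTAG. The DMSO sets of both cell states stood high and the dTAG sets low, and the unnamed set covered 100%. What remained in mESC dTAG was the 3′ end, from 381.2 kb after the start to the end of the gene, in a 95 kb domain. That end is dense in exons, so 63.8% of the exon bases of Tnr (8211 of 12867, in 5 of the 24 blocks) stayed in a domain although most of the intron length did not. In 2CLC dTAG the remaining pieces lay elsewhere, from 151.2 to 216.2 kb after the start with 1 exon block and over the last 1.7 kb, and together they held 15.7% of the exon bases.

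**Figure D1:**
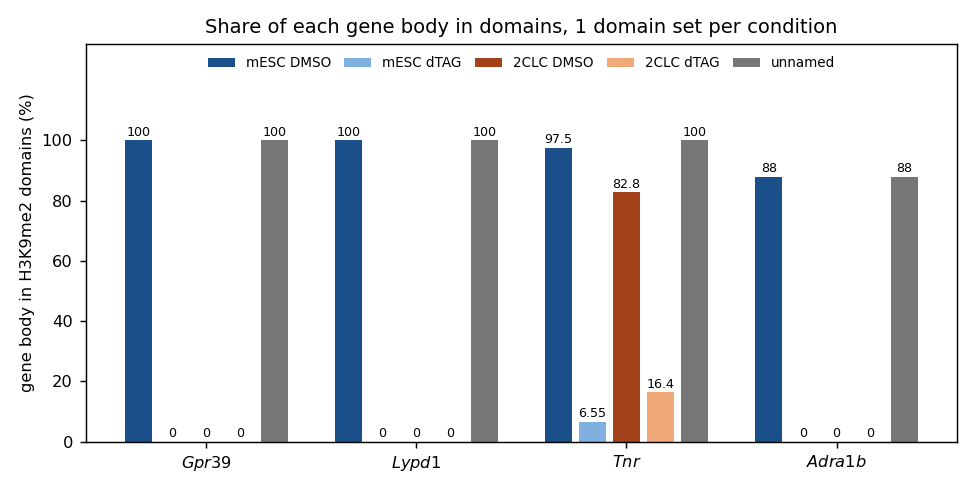
Bars give the percent of each gene body inside H3K9me2 domains, from 0 to 100, for the 5 sets (1 list of domains each, so no error bar). Gpr39, Lypd1 and Adra1b stood at 0 in 3 sorted sets, while Tnr kept 82.8% in 2CLC DMSO and small shares in both dTAG sets.

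The domain that held Gpr39 and Lypd1 was the widest of the 3. It ran over chr1:125675042-126725040 in mESC DMSO, 1050 kb, which ranked 295 among the 4323 domains by width. It held the starts of 2 protein-coding genes, these 2, and overlapped another gene, Nckap5, a gene of 917.2 kb that starts 105.8 kb beyond the far border. Its other 3 gene starts, Gm37161, Gm37936 and Gm38177, are annotated only as transcripts still to be tested by experiment. In mESC dTAG 70 kb of it remained, in 1 domain at the far end from Gpr39, and in 2CLC dTAG 80 kb (7.62%) remained in 3 domains. In 2CLC DMSO 0% of it was in a domain.

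Gpr39 and Lypd1 sat at different depths in it. The start of Gpr39 lay only 1.95 kb inside the border, less than the 5 kb bin, while that of Lypd1 lay 238 kb inside. Among the 1105 starts that left, the median depth inside the border was 33.0 kb (quartiles 9.32 and 81.7), with 95 starts nearer to a border than Gpr39 and 1012 nearer than Lypd1. In mESC dTAG a 55 kb domain ended 7.0 kb upstream of Gpr39, and the next one began beyond Lypd1, so the domain-free stretch holding both genes measured 935 kb. With all borders moved 1 bin inward, the start of Gpr39 was out of the mESC DMSO domain too, while 98.5% of its body and all of Lypd1 stayed in it.

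The surroundings changed less than the domain itself. Upstream of Gpr39, a 710 kb domain of mESC DMSO was matched by one of 830 kb with dTAG, and in 2CLCs by domains of 690 kb with DMSO and 550 kb with dTAG. Beyond the far border, a 200 kb domain that only 1 bin separated from the wide one was matched in mESC dTAG by domains of 50 and 190 kb. Within 1 Mb on each side of Gpr39 mESC domains covered 86.6% with DMSO and 44.0% with dTAG, 2CLC domains 31.4% with DMSO and 34.5% with dTAG, and the unnamed set 96.4%. For Lypd1 these shares were 85.6%, 39.9%, 24.6%, 35.5% and 96.1% in the same order. The number of domains went from 3 to 5 around Gpr39 in mESCs and from 1 to 8 in 2CLCs, so less coverage came with more and shorter pieces after dTAG in mESCs. These shares depend on the window: with 500 kb on each side of Lypd1 they were 72.3% with DMSO and 8.36% with dTAG in mESCs, and 0.232% and 6.26% in 2CLCs.

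In 2CLC DMSO the neighbourhood of Gpr39 and Lypd1 held the longest domain-free stretch of any set around these genes, 3385 kb (chr1:125370043-128755037). It contained 18 protein-coding starts, among them Mcm6, a subunit of the replicative helicase, Lct, the intestinal lactase, and Cxcr4, a chemokine receptor. The states of Mcm6, Lct and Cxcr4 in the other sets are not given here. Over all protein-coding genes, 65.8% of starts were out of domains in all 4 sorted sets, so these names do not mark this set alone. In 2CLC dTAG the stretch measured 890 kb and held 3 starts. Nckap5 followed its neighbours over its body, with 99.5% covered in mESCs with DMSO and 15.9% with dTAG, and in 2CLCs 0% with DMSO and 13.1% with dTAG, although its start stayed in a domain in mESC dTAG. Slc35f5, whose start lies 114.4 kb below the domain, was out of domains in all 4 sorted sets.

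**Figure D2:**
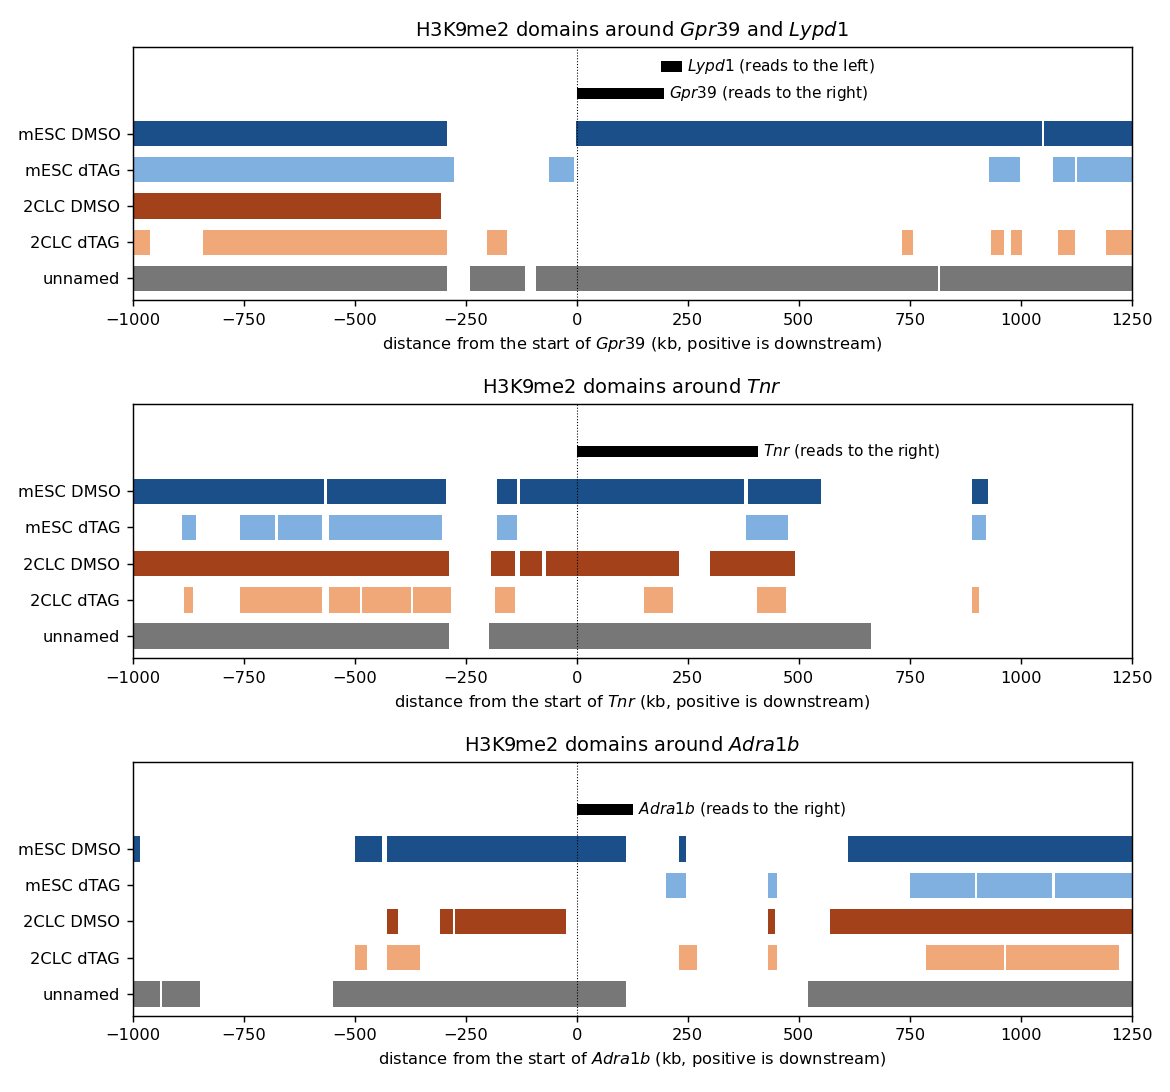
Bars mark H3K9me2 domains of the 5 sets around the 3 places, by distance in kb from the start of Gpr39, Tnr or Adra1b in the reading direction, with black bars for the genes. The wide mESC DMSO domain at each start (1050, 505 and 540 kb) has few or no counterparts in mESC dTAG. The nearest mESC DMSO domains upstream of Gpr39 and Tnr recur in the sorted sets.

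Tnr lay in a domain of 505 kb (chr1:159394997-159899996), rank 722 by width, with its start 128.8 kb inside. In mESC dTAG 0% of this domain was left, and the nearest domain ended 133.8 kb upstream of the start. In 2CLC DMSO 84.2% was covered (425 kb) but by 3 domains, so the stretch was interrupted, and the start lay in a 300 kb piece. In 2CLC dTAG 12.9% (65 kb) was left. The domain held no other protein-coding start, and its other gene starts are the pseudogene Gm37757 and the entries Gm37731 and Gm10530.

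Next to the lost domain of Tnr, some domains kept their place and others shrank. A 45 kb domain upstream, chr1:159344997-159389996, had identical borders in mESC DMSO and mESC dTAG and ended 1 bin before the domain that was lost. Farther upstream a 270 kb domain of mESC DMSO measured 255 kb in mESC dTAG. Beyond it, a 595 kb domain of mESC DMSO reached past the 1 Mb limit. Inside that limit only domains of 30, 80 and 100 kb lay in its place in mESC dTAG. Downstream, a 165 kb domain over the end of the gene shortened to 95 kb. Within 1 Mb of Tnr, mESC domains covered 60.3% with DMSO and 27.2% with dTAG, 2CLC domains 54.2% with DMSO and 28.2% with dTAG, and the unnamed set 65.3%, so that both DMSO sets lay above both dTAG sets. The nearest protein-coding starts outside the domain behaved differently. The start of 4930523C07Rik left domains in mESCs, its body going from 85.4% to 0%. Cop1, which encodes a ubiquitin ligase, had its start out of domains in both mESC sets and in domains in both 2CLC sets. That start (chr1:159232320) lay between the ends of a mESC DMSO domain (159229997) and a 2CLC DMSO one (159234997), 1 bin apart. The body of Cop1 was covered over 2.29% in both mESC sets, and in 2CLCs over 17.6% with DMSO and 13.3% with dTAG.

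Adra1b lay in a domain of 540 kb (chr11:43789776-44329774), rank 670 by width, that ran upstream from within the gene. Its start was 111.4 kb inside, and the domain held 1 protein-coding start and the lincRNA genes Gm12153 and Gm12154. In mESC dTAG 0% of the domain was left. The domain-free stretch around the start measured 1385 kb in that set and held 6 protein-coding starts. They include Il12b, a subunit of interleukins made by antigen-presenting cells, and Ebf1, a transcription factor of B cell development. Of the 6, only Adra1b had its start in the lost domain, and Il12b was out of domains with DMSO too. The state of Ebf1 with DMSO is not given here. In 2CLC DMSO 56.5% (305 kb) was covered by 3 domains, but the nearest, of 250 kb, ended 23.6 kb upstream of the Adra1b start, so that the gene itself was out of it. In 2CLC dTAG 13.9% (75 kb) was covered, at the far end.

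Within 1 Mb of Adra1b, mESC domains covered 53.9% with DMSO and 20.2% with dTAG, 2CLC domains 41.2% with DMSO and 23.3% with dTAG, and the unnamed set 66.4%. As at Tnr, the DMSO sets stood above the dTAG sets in both cell states. Downstream of the gene, a 15 kb domain of mESC DMSO was matched by one of 45 kb in mESC dTAG, which was the nearest to the start at 201.4 kb. Farther downstream, an 860 kb domain of mESC DMSO was matched by domains of 340, 170 and 145 kb. Upstream, domains of 60 and 95 kb in mESC DMSO had no counterpart in mESC dTAG. The adjacent Ttc1 was out of domains in all 5 sets, and Il12b was in one only in the unnamed set. The start of Il12b (chr11:44400063) lay less than 1 bin beyond the end of a domain in mESC DMSO and in 2CLC dTAG, both ending at 44399774.

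Set against all starts that left domains in mESCs, these were far from what remained. The median distance of the 1105 starts to the nearest mESC dTAG domain was 23.1 kb (quartiles 7.29 and 58.9), and only 72 starts were farther than Lypd1 at 243.1 kb, 85 farther than Adra1b at 201.4 kb and 131 farther than Tnr at 133.8 kb. Gpr39 was the exception, with 834 starts farther than its 7.0 kb. The median width of the mESC DMSO domain at these starts was 240 kb (quartiles 130 and 530), and 127 starts were in wider domains than Gpr39 and Lypd1, 268 in wider ones than Adra1b and 293 in wider ones than Tnr. These distances come from the sets used for the choice and are descriptions.

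Few wide domains were lost. Of 724 mESC DMSO domains at least as wide as the one at Tnr, 4 (0.552%, Wilson 95% interval 0.215 to 1.41, over domains and not cultures) shared no base with mESC dTAG, and 10 (1.38%, 0.752 to 2.52) kept under 10%. The wide domains kept a median of 94.0% of their length (quartiles 77.0 and 99.1). Over all 4323 domains, 621 (14.4%) shared no base with mESC dTAG. That condition is harder to meet for a wider domain, so the shares of wide and of all domains are not alike. By under 50% kept they were 9.25% of the wide and 32.2% of all domains. By width among these 621, Adra1b's domain ranked 3 and Tnr's ranked 4, and wider than both were domains of 665 kb on chromosome 9 and 615 kb on chromosome 12 without a protein-coding start. Next below in width were one of 495 kb on chromosome 10, also without one, and one of 400 kb with Capn13. Counted by under 10% left, the domain of Gpr39 and Lypd1 ranked 1 of 661, ahead of an 875 kb domain on chromosome 14 with Lrtm1 that kept 6.86%. The width limit is that of the Tnr domain, and the domains chosen for their loss are among those counted. The shares, intervals and ranks are therefore descriptions shaped by the choice, with no test.

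**Figure D3:**
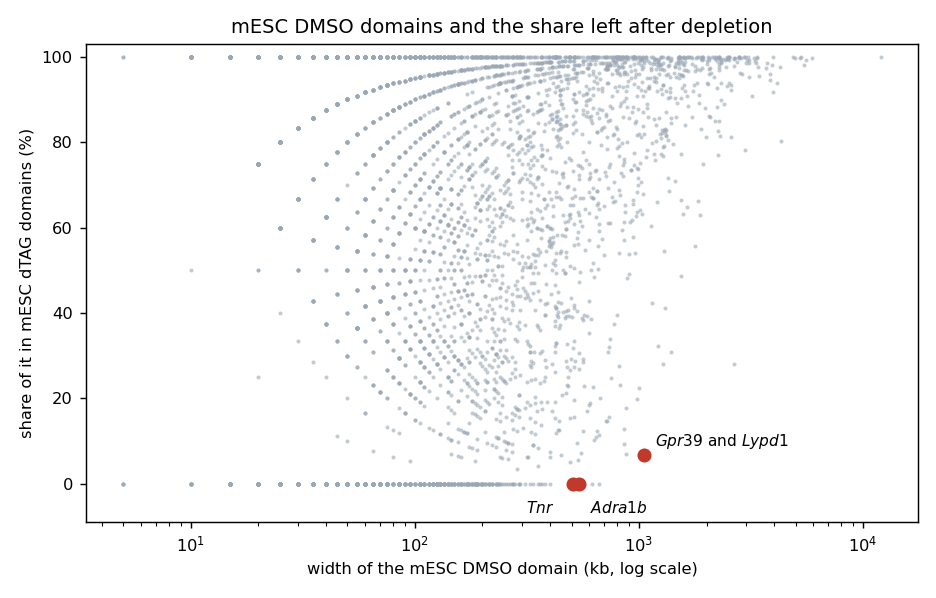
Each point is a mESC DMSO domain, by its width in kb (log scale) and the percent of its length in mESC dTAG domains; red points are the 3 domains that hold the named genes. The 724 wide domains had a median of 94.0% (quartiles 77.0 and 99.1), with 67 of them under 50%. The 3 red points lie at 6.67% (1050 kb) and 0% (540 and 505 kb).

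The 10 wide domains that kept under 10% in mESC dTAG differed widely in 2CLC DMSO, which the choice did not use. Their share there ran from 0% to 97.0% with a median of 40.7%, and the domain of Gpr39 and Lypd1 stood at the low end with 0%. Tnr's domain at 84.2% and Adra1b's at 56.5% lay above the median. In 2CLC dTAG the shares ran from 0% to 35.4% with a median of 11.7%, and the values of the 3 domains here, 7.62%, 12.9% and 13.9%, lay on both sides of that median. The unnamed set covered 71.7% to 100% of each of the 10.

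The domains shared a base composition that was unusual among wide domains. Soft-masked bases, which mark interspersed and simple repeats, made up 24.8% of the Gpr39 and Lypd1 domain, 17.4% of the Tnr domain and 23.9% of the Adra1b domain, beside a median of 40.2% (quartiles 33.5 and 46.4) over the 724 wide domains. Only 30, 1 and 19 of the 724 were poorer in repeats than these, respectively. The G and C content was 42.7%, 42.9% and 42.9%, beside a median of 38.7%, with 695, 706 and 704 wide domains below. CG dinucleotides numbered 7.57, 6.97 and 7.16 per kb beside a median of 5.57.

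Low repeat content went with thinning across the wide domains as a whole. With the 724 ordered by soft-masked bases and divided into 4 groups of 181, the group with the fewest (16.8% to 33.5%) had a median share of 63.6% left in mESC dTAG, and 61 of its domains kept under 50%. In the other 3 groups, by rising repeat content, the medians were 88.1%, 97.1% and 99.6%, and 3, 2 and 1 domains kept under 50%. All 10 domains that kept under 10% belonged to the group with the fewest repeats. With the limit set at the value of the Gpr39 and Lypd1 domain after it was seen, 31 domains had 24.8% or less and kept a median of 22.6%, with 27 of them under 50%, whereas the other 693 kept a median of 95.2%, with 40 under 50%. The 3 domains described are among the 31, the share left is the quantity by which they were chosen, and neighbouring domains share sequence composition, so these are counts without a test. G and C content, also unusual in the domains described, was not grouped in this way. The part of repeat content, of G and C content, of read mapping in repeats and of the ratio's percentiles in this pattern was not tested.

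**Figure D4:**
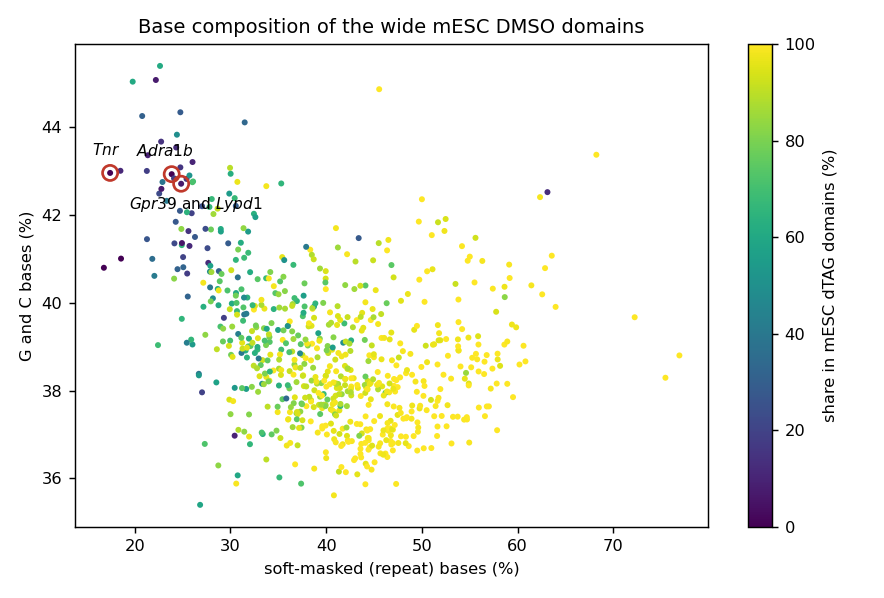
Each point is one of the 724 wide mESC DMSO domains, by soft-masked bases (percent) and G and C bases (percent), coloured by the percent of its length in mESC dTAG domains; red rings mark the domains of the named genes. Dark points of low share gather at few soft-masked bases, where the ringed domains lie at 17.4%, 23.9% and 24.8%.

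Relatives of the 4 genes were read next, from lists chosen with earlier results of these data known. Receptors came first. Of 9 adrenergic receptor genes, 2 starts were in domains in mESC DMSO and 1 in mESC dTAG, and Adra1b was the only one that left. The other, Adra1a, whose product also answers noradrenaline, kept its start in a domain in mESC dTAG, but its body went from 85.2% to 0.594%, so that gene too was almost uncovered. Adra1a was out of domains in 2CLC DMSO and in one in 2CLC dTAG, with 0.594% of its body. Of 8 genes of the ghrelin and neurotensin receptor family, Gpr39 left and Trhr, the receptor of thyrotropin-releasing hormone, stayed in a domain in every set, with 100% of its body covered in both mESC sets.

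Of 13 genes with Ly6/PLAUR domains, Lypd1 left in mESCs, and Ly6h and Ly6e entered, their bodies going from 0% to 100%. Lypd6 kept its start in a domain in every set, although its body went from 96.1% to 1.17% in mESCs. Counted by starts, 2 genes of this list were in domains in mESC DMSO and 3 in mESC dTAG, and of all 16893 starts outside mESC DMSO domains, 8.14% were in mESC dTAG domains. In 2CLCs, Lypd3 and Ly6e entered and 0 left, beside 9.80% of all 16701 starts outside 2CLC DMSO domains that entered.

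Of the 4 tenascins, 2 were in domains in mESC DMSO and 0 in mESC dTAG. Tnc, which encodes tenascin-C of developing and injured tissue, lay in a 1395 kb domain, and its body went from 100% to 34.1% in mESCs while it stayed at 100% in both 2CLC sets. Tnr by contrast fell in coverage in both cell states, so both left domains in mESCs and only Tnr did in 2CLCs. Tnn and Tnxb were out of domains in all 4 sorted sets.

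Among 14 genes of perineuronal nets and of Tnr's binding partners, 2 were in domains in mESC DMSO and 0 in mESC dTAG, both binding partners of Tnr. Ptprz1, a receptor phosphatase, lay in a 370 kb domain and went from 63.4% to 20.6% of its body in mESCs and from 94.4% to 23.4% in 2CLCs. Cntn1, the adhesion protein contactin-1, lay in a 250 kb domain and went from 79.4% to 34.4% in mESCs, but from 56.7% to 65.3% in 2CLCs. Hapln1, a link protein of the matrix, left domains in 2CLCs only, where its body went from 79.1% to 0%. The starts of Vcan and Has2, which encode versican and a hyaluronan synthase, were out of domains in all 4 sorted sets, but in 2CLCs the body of Vcan went from 94.6% to 0% and that of Has2 from 97.0% to 10.5%, and in mESCs that of Has2 went from 27.8% to 0%. These lists hold few starts in domains, 2 each in mESC DMSO, and the share of all such starts that left was 22.7%.

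The genes with the most similar surroundings were sought over all protein-coding genes by the share of the 250 kb on each side of the start in the 4 sorted sets, taking the smallest sum of absolute differences in percentage points. Around Gpr39 the shares were 50.4%, 11.0%, 0% and 9.00% (mESCs with DMSO, then with dTAG, and 2CLCs likewise), and the closest were Ppp2r2b (8.37 points), Mgat5 (8.38) and Alb (8.45), which encodes serum albumin. Around Lypd1 they were 97.6%, 1.39%, 0% and 0%, and among the closest were Ptprt (7.68) and Sox9 (26.5). Lypd1 thus had the most complete change in mESCs among the 4 by this measure, which uses the sets by which the genes were chosen. The measure also depends on position, since the start of Lypd1 lay 238 kb inside the wide domain and that of Gpr39 only 1.95 kb.

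Around Tnr the shares were 84.8%, 9.00%, 81.0% and 22.0%, and Gm6133 (8.29 points), Bcl6 (9.66) and Gm37419 (9.81) were closest. Bcl6 is a transcriptional repressor of germinal centre B cells. Around Adra1b they were 75.3%, 9.00%, 45.3% and 3.71%, with larger distances to the closest genes, Ofcc1 (15.6), C1ql3 (20.2) and Gm15217 (21.3). Likeness here concerns the stretch around a start and not the start itself: the starts of Mgat5, Ptprt, Sox9, Bcl6, Gm37419 and C1ql3 were out of domains in all 4 sorted sets, and that of Ofcc1 was in one only in 2CLC DMSO. In mESC dTAG the 4 genes lay between 1.39% and 11.0% by this measure, and in 2CLC DMSO between 0% and 81.0%.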

How the data were processed

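H3K9me2 ULI-NChIP was measured in sorted mESCs and 2CLCs after DMSO or dTAG-13, with input libraries alongside. According to the study's methods, the authors aligned reads with STAR so that reads matching several repeats were also placed, removed duplicates and artefact regions, and scaled coverage to genome content, ignoring chromosomes X and M. They took the log2 ratio of immunoprecipitation to input in overlapping windows on a 5 kb step, ignoring locations without signal. Domains were seeded at bins above a high percentile and extended to a bin below a low one. Whether replicates were pooled, or percentiles set for each set, is not given in the sources used here. The submitters' processing notes name STAR 2.7.10, Picard 2.26.0, SAMtools 1.14, bedtools 2.30.0, deepTools 3.5.1 and R 4.1.2, and mm10. The deposited lists hold domain coordinates with a score of 0 throughout, so depth is unknown and no interval covers replicates.

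Shared bases of genes and domains were counted on chromosomes 1 to 19 and X (Python 3.11.15, numpy 2.4.6) with GENCODE M21 genes and the GRCm38.p6 sequence, and checked on simulated domains. A start is the first base of the annotated gene. Wide means at least as wide as the narrowest domain that holds one of the genes, and lost means no shared base. Named besides the 4 genes are those in or next to their domains, list members that left or entered a domain in mESCs, the 3 most alike genes each and the lost domains next in width, and 1 of these genes is not reported here. Chosen after values were seen are Mcm6, Lct, Cxcr4 and Ebf1 in the domain-free stretches, Adra1a, Trhr, Lypd6, Lypd3, Hapln1, Vcan, Has2, Tnn and Tnxb of the lists, the noncoding genes, the wide domains kept under 10%, with Lrtm1, and the grouping by soft-masked bases. Sets were assigned by the condition in their names, and the set whose name gives none entered no group. No test was made, since each condition has 1 list. The genes and lists were chosen with earlier results of these data known.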

Additional observations from a re-analysis of the deposited data

How the results depend on the processing

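Of 117 recomputed values, 94 stayed within their interval or, for counts, within 1.5 times. Many of the 94 were small counts of starts or body shares at 0% or 100%, which these settings could hardly move. Most shares of the surroundings moved. The intervals of body and surroundings take 5 kb bins as trials, which are not independent. Moving all borders 1 bin inward left 3 of the 4 starts in mESC DMSO domains, with Gpr39 out. The share of starts that left in mESCs, 22.7%, became 24.7% with borders 1 bin inward and 25.1% with domains of at least 50 kb. In 2CLCs 18.3% became 20.4% with borders inward, 20.3% with domains of at least 50 kb, and 16.3% with borders outward. A window of 5 kb around the start gave the same 16.3%, because for a start it is the same change as borders outward. Both settings are counted among the 117. Borders 1 bin outward raised the body share of Tnr in mESC DMSO to 100%. Calling a domain lost at under 50% of its bases raised the share of wide ones to 9.25% (1.38% at under 10%).

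With 500 kb in place of 1 Mb on each side, the surroundings of Gpr39 were 75.8%, 23.2%, 16.1%, 21.1% and 93.7% in domains (mESCs with DMSO and dTAG, 2CLCs with DMSO and dTAG, unnamed set), and those of Lypd1 were 72.3%, 8.36%, 0.232%, 6.26% and 92.8%. Tnr moved to 66.6% in mESC DMSO and 76.1% in the unnamed set, and Adra1b to 5.77% in mESC dTAG and, in 2CLCs, 33.3% with DMSO and 14.2% with dTAG. Most of these moves follow from leaving out the domains farther away. No paired analysis was possible because the deposited sets hold no values per replicate, and replicates could not be left out for the same reason. The unknown depth, the single list for each condition and the disagreement of labels and methods on which replicates had TTNBP limit every value, and their part was not tested.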
